A study of Mus musculus with 56 samples.

Results

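Chemokines are small secreted proteins that set the direction in which leukocytes move, and their receptors sit on the leukocytes that respond. The genes described here are the rows of the deposited gene table whose symbol names a chemokine ligand (Ccl, Cxcl, Xcl or Cx3cl), a conventional receptor (Ccr, Cxcr, Xcr or Cx3cr) or an atypical receptor (Ackr) followed by its number. Of the 21935 rows of the table, 59 matched, and 44 of these had 5 or more reads in 3 or more mice and were tested, among 14105 genes tested in all. The 44 were 27 ligands, 13 conventional receptors and 4 atypical receptors. The other 15 genes (Ccl1, Ccl11, Ccl17, Ccl21a, Ccl21b, Ccl26, Ccl27b, Ccr3, Ccr4, Ccr8, Ccr10, Cxcl3, Cxcl15, Cxcl17 and Cxcr1) held at most 56 reads each over all 56 mice and were not tested; 4 of them held no read.

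Male C57BL/6J mice that arrived at 5 to 6 weeks of age were kept for 36 weeks on chow or on the AMLN diet, rich in fat, fructose and cholesterol, which gives steatohepatitis with fibrosis (DIO-MASH). They were then dosed once daily under the skin for 8 weeks. Liver RNA was sequenced from 8 mice in each of 7 groups: chow-fed mice given vehicle (labelled CHOW, Vehicle) and AMLN-fed mice given vehicle, low-dose zalfermin (0.05 mg/kg), high-dose zalfermin (0.2 mg/kg), low-dose semaglutide (3 µg/kg), high-dose semaglutide (120 µg/kg), or both low doses as separate injections (the combination). Zalfermin is a long-acting analog of fibroblast growth factor 21 and semaglutide is an agonist of the glucagon-like peptide-1 receptor. The series' own design line names high doses for the combination; the doses given here are those of the study's methods. All AMLN-fed groups stayed on the diet during dosing, and the chow group differed from them in diet as well as in disease. The sample was a piece of whole liver, so a lower value can mean fewer cells of a type or less RNA per cell, and these cannot be told apart.

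In a healthy liver the resident macrophages, called Kupffer cells, express few of the receptors that circulating leukocytes use to enter. In steatohepatitis, Ccl2 draws Ccr2-bearing monocytes from the blood, and many of the macrophages they become carry Cx3cr1, the receptor of the membrane-bound chemokine Cx3cl1. T cells and natural killer cells respond through Cxcr3 and Cxcr6, B cells through Cxcr5, neutrophils through Cxcr2, and dendritic cells through Ccr7 and Xcr1. The atypical receptors bind chemokines without driving migration and remove them.

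The promoters of 5 ligands on which the results turn are shown: Cxcl1 and Cxcl2, which lie next to each other and had their highest values in the same chow mouse, Cxcl9 and Cxcl10, which rose together in disease, and Cxcl14, the one member that differed between treated groups. Each line gives the 250 bases before the RefSeq start, 5′ to 3′ on the gene's strand, on GRCm38.p6, and capitals mark 4 short motifs searched on both strands: the PU.1 core GAGGAA, the AP-1 site TGANTCA, the kappaB site GGNNTTTCC and the TATA box TATAAA.
Cxcl1 (chr5:90890995-90891244, plus strand): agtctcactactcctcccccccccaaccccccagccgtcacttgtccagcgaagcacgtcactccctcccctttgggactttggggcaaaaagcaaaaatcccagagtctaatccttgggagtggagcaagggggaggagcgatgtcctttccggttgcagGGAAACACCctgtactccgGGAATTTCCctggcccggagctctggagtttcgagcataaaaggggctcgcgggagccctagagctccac
Cxcl2 (chr5:90903649-90903898, plus strand): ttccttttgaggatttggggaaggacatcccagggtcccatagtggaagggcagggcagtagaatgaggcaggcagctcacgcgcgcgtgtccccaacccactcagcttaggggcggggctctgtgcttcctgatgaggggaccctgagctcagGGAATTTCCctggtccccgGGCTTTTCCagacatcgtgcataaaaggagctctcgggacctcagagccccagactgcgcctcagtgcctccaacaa
Cxcl9 (chr5:92328080-92328329, minus strand): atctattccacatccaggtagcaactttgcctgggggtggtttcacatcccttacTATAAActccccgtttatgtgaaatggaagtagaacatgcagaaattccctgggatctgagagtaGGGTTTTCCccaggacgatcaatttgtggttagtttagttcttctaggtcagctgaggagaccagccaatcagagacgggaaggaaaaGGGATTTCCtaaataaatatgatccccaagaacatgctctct
Cxcl10 (chr5:92348890-92349139, minus strand): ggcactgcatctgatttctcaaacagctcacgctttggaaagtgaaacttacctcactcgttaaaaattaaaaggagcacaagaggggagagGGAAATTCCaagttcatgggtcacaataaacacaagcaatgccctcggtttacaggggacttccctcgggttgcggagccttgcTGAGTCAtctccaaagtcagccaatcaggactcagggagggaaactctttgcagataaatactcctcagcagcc
Cxcl14 (chr13:56296552-56296801, minus strand): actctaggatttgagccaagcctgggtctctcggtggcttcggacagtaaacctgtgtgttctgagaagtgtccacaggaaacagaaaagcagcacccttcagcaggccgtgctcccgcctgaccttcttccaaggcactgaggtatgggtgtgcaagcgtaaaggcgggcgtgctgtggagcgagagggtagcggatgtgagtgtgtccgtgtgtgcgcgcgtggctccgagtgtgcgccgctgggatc
The letters of the kappaB site occurred 2 times each in the windows of Cxcl1, Cxcl2 and Cxcl9 and 1 time in that of Cxcl10. Cxcl10 also held an AP-1 match and Cxcl9 a TATA match, and none of the 4 strings occurred in the Cxcl14 window. Promoters were listed for 34 of the 44 tested members. Of these, 7 held a kappaB match (20.6%), against 4.93% of the 32817 promoters of the table. A TATA match stood in 11 (32.4% against 12.4%), a PU.1 core in 10 (29.4% against 23.3%) and an AP-1 match in 3 (8.82% against 6.75%). A match is a string of letters and was not tested as a binding site.

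Each mouse contributed between 5228187 and 20885786 reads in genes (median 12206788), and levels are given as CPM, a share of the reads of a library whose size was scaled by TMM factors. Of the 56 libraries, 3 stood apart. Chow mouse 8 had the lowest mean Spearman correlation with its own group (0.947) and held RNA of genes of the gut lining. Vil1 was at 272 CPM against at most 0.87 in the other 7 chow mice, Lgals4 at 250.2 against at most 2.7, Muc2 at 25.4, and Cdx1 and Cdx2, at 4.68 and 6.15 CPM, had no read in any other chow mouse. These genes were looked up after the mouse was seen to differ. Its B and plasma cell marker sum was 322 CPM against a group median of 9.01. Chow mouse 2 had a neutrophil marker sum of 56.7 CPM against a group median of 4.12. Low-dose semaglutide mouse 6 had the second lowest correlation with its group (0.967) and a macrophage marker sum of 215 CPM against a group median of 757. The study left 1 low-dose semaglutide mouse out of its own analysis and the deposited table does not mark which, so all 56 mice were kept and results that rest on these 3 are given with and without them. The 12 hepatocyte markers summed to between 69033 and 258747 CPM, so every library held liver RNA.

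DIO-MASH vehicle livers were compared with chow vehicle livers to ask how the chemokine system differed in established disease. Receptors of monocytes, macrophages, T cells and dendritic cells and most inflammatory ligands were higher, and 6 ligands were called lower, 4 of which lost the call when 1 chow mouse was left out. At an adjusted p under 0.05 in edgeR's quasi-likelihood test (Benjamini-Hochberg over all genes tested), 34 of the 44 members were called, where 55.4% of all genes tested were. Of the members 28 were higher in disease (background 28.9%) and 6 lower (background 26.5%). The median log2 fold change of the members was 1.82, and the median of all genes tested was 0.01. In 12 members, among them Ccl2, Ccl7, Ccl22, Ccr2, Cx3cr1, Cxcl14 and Cxcr4, all 8 diseased mice lay above all 8 chow mice, and 16% of all genes tested had groups that did not overlap in either direction. Without the 3 libraries that stood apart, 32 were called, 30 higher and 2 lower, and the share of all genes in that refit was not counted. The animal numbers in the labels fall into 4 series, and in 34 of the 44 members the difference had one sign within each of the 3 series that held every group. These series held 2, 1 and 3 chow mice, so the second rests on a single chow library. Against DIO-MASH vehicle, members with one sign numbered 18 in low-dose zalfermin, 24 in low-dose semaglutide and 27 in the combination. High-dose zalfermin had 24 and high-dose semaglutide 14. No such count was made over all genes. For members called in disease alone, the medians of the 5 treated groups and the range of their single mice are added.

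**Figure D1:**
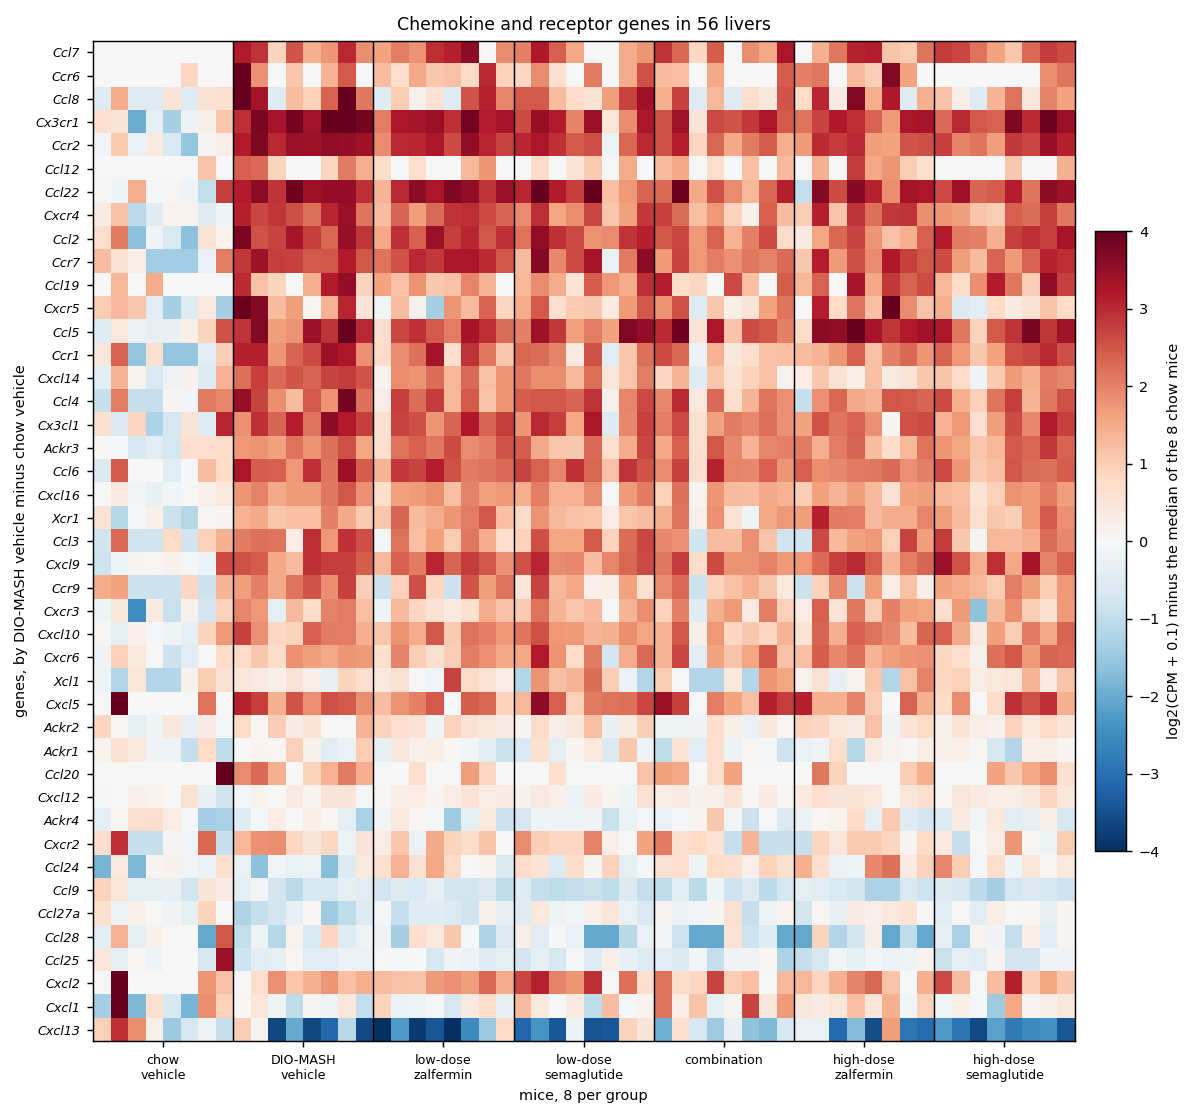
Each row is a tested gene (1 of the 44 is not drawn) and each column 1 of the 56 mice, 8 per group; colour is log2(CPM + 0.1) minus the median of the 8 chow mice, from blue (lower) to red (higher), with the scale ending at 4 in both directions. Rows run from the largest rise in disease (Ccl7) to the largest fall (Cxcl13); chow mouse 2 and chow mouse 8 stand out in the lowest rows (Cxcl1, Cxcl2, Ccl25, Ccl28).

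The CC receptors Ccr1, Ccr2, Ccr6, Ccr7 and Ccr9 were called higher in disease. Ccr2, the receptor of inflammatory monocytes, was at a lowest, median and highest of 0.384, 1.33 and 2.86 CPM in chow and 11.4, 15.1 and 18.9 CPM in DIO-MASH vehicle. Every diseased mouse lay above every chow mouse, and the log2 difference was 3.4 ± 0.34 (SE), 10.6-fold, with an adjusted p of 8.9e-12 in edgeR. Ccr7, which guides dendritic cells and naive T cells to lymphoid tissue, was at 0, 0.168 and 0.985 CPM in chow and 1.35, 1.66 and 2.68 CPM in disease (2.78 ± 0.48 (SE), edgeR adjusted p 2.69e-06). Treated Ccr7 medians lay between 0.971 and 1.88 CPM, and single treated mice between 0.117 and 3.28 CPM. Ccr1, shared by monocytes and neutrophils, was at 0, 0.213 and 1.43 CPM and 0.925, 2.12 and 3.12 CPM, and the groups overlapped through chow mouse 2 alone (2.38 ± 0.5 (SE), edgeR adjusted p 7.99e-05). Ccr6 and Ccr9 were near the limit of detection, with medians of 0.139 and 0.599 CPM in disease. Ccr6 had 1 read in the 8 chow mice together and 42 in the 8 diseased mice, a ratio of 30.9 with a 95% counting interval of 5.24 to 1248. That interval treats the pooled reads as independent and leaves out the spread between mice. The highest Ccr6 count in any single mouse of all groups was 28 reads.

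The fractalkine receptor Cx3cr1 had the highest level per kilobase of exon of the conventional receptors in DIO-MASH vehicle, 6.44 CPM per kb at the median, with Cxcr4 at 2.39 and Ccr2 at 2.23. Cx3cr1 rose from 0.435, 2.03 and 4.43 CPM in chow to 16.3, 29 and 33.8 CPM in disease, 11.9-fold and without overlap, a log2 difference of 3.57 ± 0.37 (SE) (edgeR adjusted p 1.46e-11). Its ligand Cx3cl1, shed from endothelium and epithelium, was at 0.541, 1.51 and 12.3 CPM in chow and 5.31, 10.7 and 17.8 CPM in disease (1.98 on the log2 scale, edgeR adjusted p 0.000171), and the groups overlapped through chow mouse 8, which carried the gut genes, at 12.3 CPM. Treated Cx3cl1 medians lay between 5.26 and 8.16 CPM, and single treated mice between 0.938 and 14 CPM. Xcr1, which marks cross-presenting dendritic cells, was at 0.151, 0.454 and 0.718 CPM and 1.04, 1.26 and 2.16 CPM without overlap (1.82, edgeR adjusted p 2.09e-05). Treated Xcr1 medians lay between 1.12 and 1.85 CPM, and single treated mice between 0.391 and 4.63 CPM. Xcl1, its ligand, did not pass the test (0.74 ± 0.75 (SE)).

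Among the CXC receptors, Cxcr4, which answers to Cxcl12 on most leukocytes, was at 0.217, 0.554 and 1.35 CPM in chow and 2.77, 4.32 and 6.98 CPM in disease, without overlap (2.81 ± 0.37 (SE), edgeR adjusted p 8.42e-09). Cxcl12 itself, made by stromal cells, had the highest level per kilobase of all members in DIO-MASH vehicle (37.7 CPM per kb) and differed little, at 164, 283 and 429 CPM in chow and 268, 308 and 406 CPM in disease; its log2 difference had a 95% interval of -0.05 to 0.43 and did not pass the test. Cxcr3, the receptor of activated T cells, was at 0, 0.474 and 0.985 CPM and 0.336, 1.54 and 2.26 CPM with overlapping groups (1.62, edgeR adjusted p 0.000918). Treated Cxcr3 medians lay between 0.856 and 1.63 CPM, and single treated mice between 0.0886 and 2.89 CPM. Cxcr6, found on liver-resident T and NKT cells, was at 0.208, 0.462 and 0.978 CPM and 0.841, 1.61 and 1.88 CPM (1.38, edgeR adjusted p 0.00462). Treated Cxcr6 medians lay between 1.29 and 2.11 CPM, and single treated mice between 0.235 and 4.98 CPM. Cxcr5, the homing receptor of B cells, ranged widely among diseased mice, 0.169, 0.633 and 3.7 CPM against 0, 0.163 and 0.527 CPM in chow (2.66 ± 0.66 (SE), edgeR adjusted p 0.000636). The neutrophil receptor Cxcr2 did not pass the test and its highest chow value, 1.35 CPM, was that of chow mouse 2, with a group median of 0.0904.

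Of the 4 atypical receptors only Ackr3, the scavenger of Cxcl12, passed the test. It was at 0.208, 0.393 and 0.738 CPM in chow and 1.38, 1.6 and 2.78 CPM in disease without overlap (1.97, edgeR adjusted p 2.37e-06). Treated Ackr3 medians lay between 1.29 and 2.06 CPM, and single treated mice between 0.679 and 3.37 CPM. Ackr1, Ackr2 and Ackr4 had log2 differences of 0.22, 0.45 and -0.12 and medians in disease of 1.19, 2.82 and 2.87 CPM. About 25.7% of the exon bases of Ackr1 is shared with Cadm3 in the annotation, and the counts cannot part these genes there. On the other strand, Acad11 overlaps 8.9% of the exon bases of Ackr4 and Bcl9l 3.3% of those of Cxcr5, with 285068 reads for Acad11 against 1883 for Ackr4 and 39854 for Bcl9l against 499 for Cxcr5. Whether the counting used strand is not given in the sources used here, so reads of these genes may be counted together where they overlap.

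All 3 ligands of Ccr2 were higher in disease. Ccl2, the main monocyte attractant, was at 0, 0.213 and 1.2 CPM in chow and 1.44, 2.1 and 4.13 CPM in DIO-MASH vehicle, without overlap (2.81 ± 0.41 (SE), edgeR adjusted p 1.16e-07). Ccl7, which shares the receptor, had no read in any chow mouse and 49 reads in the 8 diseased mice, at least 12-fold higher when the chow group as a whole is set at 3 reads. Ccl12, the mouse paralog of Ccl2, had 1 read in chow and 23 in disease, a ratio of 16.9 with a counting interval of 2.74 to 696. This interval also pools the reads of the mice and leaves out the spread between them. No single mouse of any group held more than 8 reads of Ccl12. Ccl8, which in mice is a ligand of Ccr8 on T cells, was at 0, 0.052 and 0.301 CPM and 0, 0.579 and 5.04 CPM (3.92 ± 0.88 (SE), edgeR adjusted p 0.000181). Its diseased mice spread from 0 to the highest value of all 56 mice, and the groups overlapped. The 4 genes lie in one stretch, chr11:82035571-82116799 on GRCm38, with the untested Ccl11 among them.

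Of the inflammatory CC ligands Ccl3, Ccl4, Ccl5, Ccl6 and Ccl9, 4 were higher in disease and 1 was lower. Ccl5, made mainly by T cells and NK cells, was at 0.718, 1.05 and 6.52 CPM in chow and 3.53, 8.78 and 23.4 CPM in disease (2.57 ± 0.48 (SE), edgeR adjusted p 1.01e-05); the highest chow value was that of chow mouse 8. Treated Ccl5 medians lay between 6.23 and 11.3 CPM, and single treated mice between 1.54 and 18.3 CPM. Ccl4 was at 0, 0.0904 and 0.71 CPM and 0.353, 0.855 and 2.59 CPM (2.0, edgeR adjusted p 0.00112). Treated Ccl4 medians lay between 0.609 and 0.937 CPM, and single treated mice between 0 and 1.43 CPM. Ccl3, below 0.5 CPM on average, rose by 1.81 on the log2 scale. Ccl6 and Ccl9 are macrophage chemokines that lie side by side on chromosome 11 and moved in opposite directions. Ccl6 went from 2.77, 4.18 and 23.3 CPM in chow to 14.2, 22.9 and 47 CPM in disease (1.87, edgeR adjusted p 2.62e-06), and the one chow mouse inside the diseased range was chow mouse 2, at 23.3 CPM. Ccl9 went from 48.7, 84.1 and 156 CPM down to 39.2, 57.1 and 75.3 CPM (-0.68, edgeR adjusted p 0.000335). Treated Ccl6 medians lay between 16.2 and 23.2 CPM, and single treated mice between 6.86 and 37.8 CPM. Treated Ccl9 medians lay between 42.6 and 51.7 CPM, and single treated mice between 32.9 and 72.2 CPM.

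Cxcl9 and Cxcl10, the interferon-induced ligands of Cxcr3 whose promoters are printed above, rose together. Cxcl9 was at 3.59, 6.48 and 40 CPM in chow and 15.9, 36.5 and 50 CPM in disease (1.81, edgeR adjusted p 2.57e-05), with chow mouse 8 at the top of its group. Treated Cxcl9 medians lay between 24.3 and 35.7 CPM, and single treated mice between 10.9 and 71.2 CPM. Cxcl10 was at 0.978, 1.3 and 4.55 CPM and 2.35, 5.27 and 9.12 CPM (1.58, edgeR adjusted p 6.04e-05). Treated Cxcl10 medians lay between 3.17 and 5.7 CPM, and single treated mice between 1.54 and 8.05 CPM. Cxcl16, the ligand of Cxcr6, was at 6.76, 8.38 and 11.2 CPM and 23.9, 29.6 and 47.1 CPM without overlap (1.84, edgeR adjusted p 1.53e-09). Treated Cxcl16 medians lay between 21.2 and 27.1 CPM, and single treated mice between 8.45 and 38.8 CPM. Ccl22, made by dendritic cells and read by the Ccr4 of regulatory T cells, was at 0, 0.0963 and 1.23 CPM and 1.35, 2.04 and 2.82 CPM without overlap (3.04 ± 0.54 (SE), edgeR adjusted p 5.07e-06). Treated Ccl22 medians lay between 0.853 and 1.89 CPM, and single treated mice between 0 and 3.96 CPM. Ccl19, a ligand of Ccr7, was below 0.5 CPM on average and rose by 2.75 on the log2 scale.

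Cxcl14, a constitutively made chemokine of epithelium and stroma, was at 1.26, 1.97 and 5.29 CPM in chow and 9.44, 11.7 and 14.2 CPM in DIO-MASH vehicle. The groups did not overlap, and the log2 difference was 2.17 ± 0.29 (SE), 4.51-fold (edgeR adjusted p 1.6e-08).

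Of the members, 6 were called lower in disease, and 4 of these calls were lost when a single chow mouse was left out. Cxcl1, a neutrophil attractant, was at 0.615, 2.76 and 47.3 CPM in chow and 1.18, 2.38 and 3.51 CPM in disease, so the medians were close while the log2 difference was -1.88 ± 0.53 (SE) (edgeR adjusted p 0.00219). Chow mouse 2, with the high neutrophil markers, held the 47.3 CPM, and without it the difference was -0.38 (adjusted p 0.475). Cxcl2, the neighbour of Cxcl1, had 3.01 CPM in the same mouse and a median of 0 in chow, and its difference went from -1.74 to 1.35 without it (adjusted p 0.182). The Cxcl2 call was also lost with that mouse kept, among others in DESeq2 (-1.67, adjusted p 0.0683) and with only the compared groups fitted (-1.7, edgeR adjusted p 0.163). Cxcl13, the B cell attractant, was at 0.728, 2.21 and 17.4 CPM in chow and 0.0841, 0.315 and 4.4 CPM in disease (-2.02 ± 0.77 (SE), edgeR adjusted p 0.0224) and at -1.25 without chow mouse 2 (adjusted p 0.173). Treated Cxcl13 medians lay between 0.20 and 1.02 CPM, and single treated mice between 0 and 7.17 CPM. Ccl25, the ligand of Ccr9 that is known from gut and thymus, was at 2.6, 4.21 and 47.4 CPM and 2.31, 3.16 and 4.35 CPM (-1.53, edgeR adjusted p 0.000189). Its 47.4 CPM came from chow mouse 8, the library with the gut genes, and without that mouse the difference was -0.31 (adjusted p 0.132). Treated Ccl25 medians lay between 3.07 and 3.67 CPM, and single treated mice between 1.74 and 5.04 CPM. Ccl27a and Ccl9 were called lower with either mouse left out.

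Ccl27a, a ligand of Ccr10 known from skin, was at 1.61, 2.08 and 3.9 CPM in chow and 0.72, 1.1 and 2.2 CPM in DIO-MASH vehicle (-0.94, edgeR adjusted p 0.000291). The groups overlapped, and each value is uncertain to the extent that reads are shared with near-identical copies of the gene on chromosome 4 (Ccl27b had no read). Of the members, 10 did not pass the test in disease (Ackr1, Ackr2, Ackr4, Ccl20, Ccl24, Ccl28, Cxcl5, Cxcl12, Cxcr2 and Xcl1), and Ccl24, which attracts eosinophils, was one of them, at 0.205, 1.0 and 1.6 CPM and 0.24, 0.814 and 1.38 CPM (-0.37).

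Cell type markers moved beside these genes, and of all genes tested 28.9% were higher and 26.5% lower in disease. The 16 monocyte and macrophage markers, a list that holds no member, summed to a lowest, median and highest of 139, 213 and 430.0 CPM in chow and 865, 987 and 1401 CPM in DIO-MASH vehicle, and 12 of 16 were higher. T cell markers summed to 1.74, 6.42 and 15.3 CPM and 37.2, 50.6 and 58.8 CPM, with 11 of 12 higher, and Themis alone, a gene of T cell development, had a median of 32 CPM in disease. Dendritic cell markers summed to 122, 142 and 199 CPM and 164, 200.5 and 226 CPM, with 8 of 11 higher, and Bst2 alone had a median of 150 CPM in disease. Stellate and fibroblast markers summed to 203, 316 and 359 CPM and 1195, 1684 and 1961 CPM, with 12 of 14 higher. Kupffer cell markers summed to 262, 420.2 and 762 CPM and 235, 406 and 583 CPM, with 2 of 9 higher and 4 lower. Neutrophil markers summed to 1.53, 4.12 and 56.7 CPM in chow and 3.89, 5.98 and 7.37 CPM in disease. All 12 hepatocyte markers were lower. The part of these changes in cell makeup in the values of the chemokine genes was not tested.

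The 5 treated groups were each compared with DIO-MASH vehicle, which they share as control, to ask which of these genes the drugs changed. In the combination and in high-dose zalfermin, Ccr2, its ligand Ccl2, Cx3cr1 and Cxcl14 fell, and Ccl24 and Ccl27a rose. The shares of members called in these groups lay near those of all genes tested. The combination had 10 of 44 members called (background 20.9%): 7 fell (Ccl2, Ccl8, Ccr1, Ccr2, Cx3cr1, Cxcl14 and Cxcr4; background 10.9%) and 3 rose (Ccl24, Ccl27a and Cxcl1; background 10%). High-dose zalfermin had 6 called (background 17.2%): 4 fell (Ccl2, Ccr2, Cx3cr1 and Cxcl14; background 8.68%) and 2 rose (Ccl24 and Ccl27a; background 8.54%). High-dose semaglutide had 3 called (background 2.43%), all lower (Ccl8, Cxcl14 and Cxcr5; background 1.0%), and none rose (background 1.43%). That count was 0 without high-dose semaglutide mouse 3 or mouse 4, and 6 without mouse 7. Low-dose zalfermin had 0 members called (background 0.468%) and 0 called by DESeq2 (211 of all genes). At an unadjusted p under 0.05 in edgeR it had 6 of the 44 members and 1593 of all 14105 genes tested. Low-dose semaglutide also had 0 called (background 0%) and 0 called by DESeq2 (32 of all genes). At an unadjusted p under 0.05 in edgeR it had 10 of the 44 members and 1222 of all 14105 genes tested. Without the 3 libraries that stood apart, the combination had 13 members called, high-dose zalfermin 8 and high-dose semaglutide 4. None of these 3 mice was in the groups so compared, and the share of all genes called in that refit was not counted. The median log2 fold change of the 44 members was -0.3 in low-dose zalfermin, -0.28 in low-dose semaglutide, -0.52 in the combination, -0.36 in high-dose zalfermin and -0.38 in high-dose semaglutide, with medians of all genes tested between -0.026 and -0.003.

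**Figure D2:**
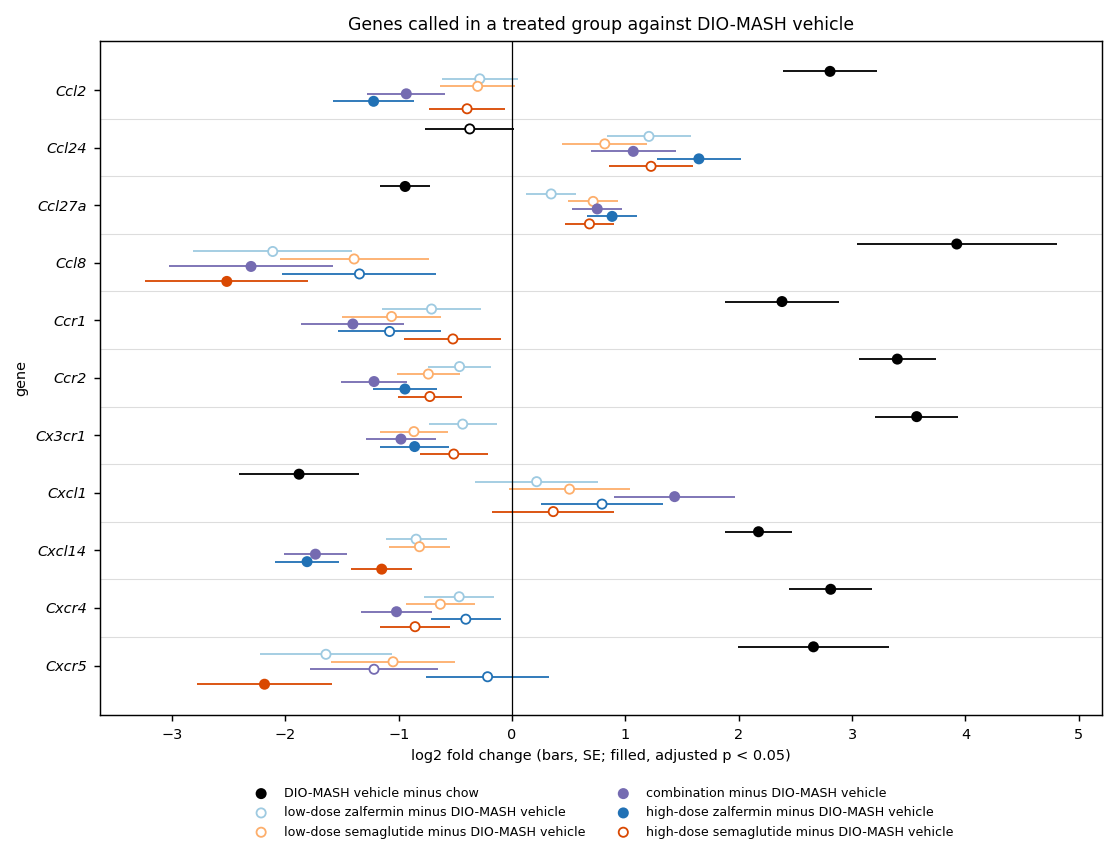
Log2 fold change with its SE (bars) for the 11 members called in 1 or more treated groups against DIO-MASH vehicle, with the difference between DIO-MASH vehicle and chow in black; filled points passed an adjusted p of 0.05 and open points did not. Cxcl14 lies left of 0 in all 5 treated groups, from -0.82 in low-dose semaglutide to -1.81 in high-dose zalfermin, and Ccl24 and Ccl27a lie right of 0 in all 5.

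Ccr2 had a lowest, median and highest level of 5.23, 11.5 and 16.3 CPM in low-dose zalfermin and 1.17, 9.63 and 13.6 CPM in low-dose semaglutide. Ccr2 stood at 2.47, 6.34 and 12.4 CPM in the combination, 4.25, 8.27 and 11.5 CPM in high-dose zalfermin and 4.45, 9.33 and 15.8 CPM in high-dose semaglutide, against 11.4, 15.1 and 18.9 CPM in DIO-MASH vehicle. The combination mice lay below the vehicle median with 1 at 12.4 CPM inside the vehicle range, and all treated medians stayed above the highest chow mouse (2.86 CPM). Against vehicle, Ccr2 changed by -1.22 ± 0.29 (SE) in the combination, to 0.43 of the vehicle level (edgeR adjusted p 0.00161), and by -0.95 ± 0.29 (SE) in high-dose zalfermin (edgeR adjusted p 0.0156). The single low doses and high-dose semaglutide gave -0.46, -0.74 and -0.73 and did not pass. Within the 3 series of mouse numbers the combination difference in mean log2 CPM was -1.23, -1.49 and -1.58. The low-dose semaglutide minimum, 1.17 CPM, was that of mouse 6, and without it that group's difference was -0.58.

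Cx3cr1 was called lower in the same groups as Ccr2. It was at 8.55, 20.2 and 30.6 CPM in low-dose zalfermin and 2.82, 15.9 and 23.3 CPM in low-dose semaglutide. Cx3cr1 stood at 2.93, 12.6 and 21.3 CPM in the combination, 6.68, 14.8 and 20.7 CPM in high-dose zalfermin and 10.1, 16.7 and 32.6 CPM in high-dose semaglutide, against 16.3, 29 and 33.8 CPM in vehicle. It changed by -0.98 ± 0.31 (SE) in the combination (edgeR adjusted p 0.0167) and by -0.86 ± 0.31 (SE) in high-dose zalfermin (edgeR adjusted p 0.0424). The second call was lost in 11 of 63 alternative settings. Of the 63, 56 left out 1 mouse each, and for 2 groups compared most of these mice belonged to other groups. The losses came without vehicle mouse 2, 4, 6, 7 or 8 and without high-dose zalfermin mouse 1, 2, 5 or 6. They also came with no filter and with the number series as covariate. High-dose semaglutide had a higher median, and its -0.51 did not pass. Within the number series the combination difference was -1.09, -0.81 and -1.15. The ligand Cx3cl1 had a difference of -0.88 in the combination, with a 95% interval of -1.68 to -0.08, and did not pass the test. The interval is not adjusted for the number of genes tested, while the test is.

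Ccr1 and Cxcr4 were called in the combination alone, and neither differed between the combination and another treated group by the test of that difference. Ccr1 was at 0.379, 1.09 and 2.9 CPM in low-dose zalfermin and 0.117, 1.17 and 1.63 CPM in low-dose semaglutide. Ccr1 stood at 0.154, 0.575 and 1.7 CPM in the combination, 0.579, 0.916 and 1.47 CPM in high-dose zalfermin and 0.532, 1.53 and 2.31 CPM in high-dose semaglutide, against 0.925, 2.12 and 3.12 CPM in vehicle, and changed by -1.41 ± 0.45 (SE) in the combination (edgeR adjusted p 0.0212). Cxcr4 was at 1.43, 3.17 and 4.92 CPM in low-dose zalfermin and 1.29, 2.27 and 4.91 CPM in low-dose semaglutide. Cxcr4 stood at 0.651, 1.75 and 4.25 CPM in the combination, 1.21, 3.7 and 5.54 CPM in high-dose zalfermin and 1.21, 2.4 and 4.29 CPM in high-dose semaglutide, against 2.77, 4.32 and 6.98 CPM in vehicle, and changed by -1.02 ± 0.31 (SE) (edgeR adjusted p 0.0157). Its ligand Cxcl12 was at 299.6, 346 and 426 CPM in low-dose zalfermin and 241, 321 and 430.0 CPM in low-dose semaglutide. Cxcl12 stood at 295, 331 and 411 CPM in the combination, 277, 397 and 448 CPM in high-dose zalfermin and 295, 378 and 514 CPM in high-dose semaglutide, and no treated group passed the test for it. Cxcr5 was called in high-dose semaglutide alone. The B cell receptor was at 0, 0.43 and 1.19 CPM in low-dose zalfermin and 0.235, 0.523 and 1.32 CPM in low-dose semaglutide. Cxcr5 stood at 0.0771, 0.55 and 1.37 CPM in the combination, 0.151, 0.658 and 4.5 CPM in high-dose zalfermin and 0.0679, 0.312 and 0.598 CPM in high-dose semaglutide, against 0.169, 0.633 and 3.7 CPM in vehicle, where a few mice held most of the reads, and changed by -2.18 ± 0.6 (SE) (edgeR adjusted p 0.0358), a call that 8 of 63 alternative settings lost. B and plasma cell markers summed to 9.84, 40.6 and 201 CPM in vehicle and 9.09, 12.3 and 30.4 CPM in high-dose semaglutide, where 5 of 10 fell (background 1.0%). Their part in the Cxcr5 value was not tested.

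Cxcl14 fell in the combination and with both high doses. It was at 2.17, 6.96 and 9.84 CPM in low-dose zalfermin and 2.82, 7.34 and 9.45 CPM in low-dose semaglutide. Cxcl14 stood at 1.39, 3.7 and 5.14 CPM in the combination, 2.36, 2.96 and 4.64 CPM in high-dose zalfermin and 1.77, 4.98 and 8.52 CPM in high-dose semaglutide, against 9.44, 11.7 and 14.2 CPM in DIO-MASH vehicle. All 8 mice of the combination, of high-dose zalfermin and of high-dose semaglutide lay below all 8 vehicle mice, a separation that 3.98%, 4.8% and 0.34% of all genes tested showed in these 3 comparisons. The log2 differences were -1.74 ± 0.28 (SE) in the combination (edgeR adjusted p 8.11e-06), -1.81 ± 0.28 (SE) in high-dose zalfermin (edgeR adjusted p 4.94e-06) and -1.15 ± 0.27 (SE) in high-dose semaglutide (edgeR adjusted p 0.0152). The single low doses gave -0.85 and -0.82 with adjusted p values of 0.141 and 0.34 in edgeR. Within the number series the differences were -1.75, -1.6 and -2.07 for the combination, -1.8, -1.74 and -1.93 for high-dose zalfermin and -1.76, -0.79 and -0.74 for high-dose semaglutide. Without high-dose semaglutide mouse 3 or mouse 4 the last call was lost, at -1.02 and -1.1 (adjusted p 0.0548 and 0.0511).

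Stellate cell and fibroblast markers moved in the same groups as Cxcl14. They summed to 1195, 1684 and 1961 CPM in vehicle, 465, 659.6 and 918 CPM in the combination, 398, 794 and 872 CPM in high-dose zalfermin and 501, 871 and 1992 CPM in high-dose semaglutide, with 10, 5 and 2 of 14 lower. Of all genes tested, 10.9%, 8.68% and 1.0% were lower in these groups. The part of the markers in the Cxcl14 value was not tested.

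Ccl2, the ligand of Ccr2, was at 0.815, 2.14 and 3.34 CPM in low-dose zalfermin and 0.977, 2.02 and 3.55 CPM in low-dose semaglutide. Ccl2 stood at 0.435, 1.33 and 1.89 CPM in the combination, 0.302, 0.896 and 1.91 CPM in high-dose zalfermin and 0.742, 1.97 and 2.94 CPM in high-dose semaglutide, against 1.44, 2.1 and 4.13 CPM in vehicle. High-dose zalfermin gave a difference of -1.22 ± 0.36 (SE) (edgeR adjusted p 0.0117), which all 63 alternative settings kept. The combination gave -0.93 ± 0.34 (SE) (edgeR adjusted p 0.0449), which 10 of 63 settings lost. These were the fits without vehicle mouse 1, 4, 7 or 8, without combination mouse 3, 4, 5, 6 or 8, and with no filter. The other Ccr2 ligands, Ccl7 and Ccl12, had medians of 0.325 and 0.0961 CPM in the combination, a few reads per mouse, and did not pass. Ccl8 was at 0, 0.149 and 1.11 CPM in low-dose zalfermin and 0.109, 0.517 and 1.39 CPM in low-dose semaglutide. Ccl8 stood at 0, 0.189 and 0.845 CPM in the combination, 0, 0.287 and 1.77 CPM in high-dose zalfermin and 0, 0.247 and 0.547 CPM in high-dose semaglutide, against 0, 0.579 and 5.04 CPM in vehicle, where 3 mice carried most of the reads. Its difference was -2.3 ± 0.72 (SE) in the combination (edgeR adjusted p 0.0169) and -2.52 ± 0.72 (SE) in high-dose semaglutide (edgeR adjusted p 0.0449). Without DIO-MASH vehicle mouse 7 these became -1.7 and -1.91 (edgeR adjusted p 0.0885 and 0.158). That was the only 1 of 63 settings that lost the combination call, while 11 of 63 lost the high-dose semaglutide call. Among the 11 were the fits without vehicle mouse 1 or 2 and without high-dose semaglutide mouse 1, 2, 3, 4, 6 or 8. Within the second number series high-dose semaglutide lay above vehicle (0.62).

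Ccl24, an eosinophil attractant made by macrophages, was at 0.635, 1.61 and 3.12 CPM in low-dose zalfermin and 0.659, 1.29 and 1.99 CPM in low-dose semaglutide. Ccl24 stood at 0.848, 1.63 and 2.0 CPM in the combination, 0.838, 1.82 and 4.98 CPM in high-dose zalfermin and 0.875, 1.4 and 4.19 CPM in high-dose semaglutide, against 0.24, 0.814 and 1.38 CPM in vehicle. It rose by 1.65 ± 0.37 (SE) in high-dose zalfermin (edgeR adjusted p 0.00097) and by 1.07 ± 0.37 (SE) in the combination (edgeR adjusted p 0.0333), the second call being lost in 5 of 63 settings. High-dose semaglutide gave 1.23 with an adjusted p of 0.0574 in edgeR and 0.0316 in DESeq2. Ccl24 had not passed the test between vehicle and chow, and all 5 treated medians lay above the medians of both. Kupffer cell markers summed to 235, 406 and 583 CPM in vehicle, 311, 489 and 746 CPM in the combination and 355, 489 and 624 CPM in high-dose zalfermin, where 3 (Clec4f, Marco and Timd4) and 1 (Clec4f) of 9 rose (background 10% and 8.54%). Their part in the Ccl24 value was not tested. Its receptor Ccr3 had too few reads to test. Ccl27a was at 1.06, 1.46 and 2.37 CPM in low-dose zalfermin and 1.32, 1.85 and 2.93 CPM in low-dose semaglutide. Ccl27a stood at 1.04, 2.08 and 3.21 CPM in the combination, 1.21, 2.29 and 3.12 CPM in high-dose zalfermin and 1.5, 2.09 and 2.5 CPM in high-dose semaglutide, against 0.72, 1.1 and 2.2 CPM in vehicle and 1.61, 2.08 and 3.9 CPM in chow. The medians of low-dose semaglutide, the combination and both high-dose groups lay within the chow range, and that of low-dose zalfermin lay below it. Ccl27a rose by 0.88 ± 0.22 (SE) in high-dose zalfermin (edgeR adjusted p 0.00301) and by 0.75 ± 0.22 (SE) in the combination (edgeR adjusted p 0.0105), and both calls held in all 63 settings.

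Cxcl1 was at 1.52, 2.24 and 4.68 CPM in low-dose zalfermin and 1.19, 3.05 and 6.12 CPM in low-dose semaglutide. Cxcl1 stood at 1.86, 4.52 and 16.8 CPM in the combination, 2.29, 3.55 and 6.93 CPM in high-dose zalfermin and 0.877, 2.83 and 7.55 CPM in high-dose semaglutide, against 1.18, 2.38 and 3.51 CPM in vehicle. The combination call (1.43 ± 0.53 (SE), edgeR adjusted p 0.0453) came from 4 mice above the highest vehicle mouse and was lost in 12 of 63 settings. Among these were the fits without vehicle mouse 1, 3, 4, 5, 6 or 8 and without combination mouse 1, 3, 6 or 8. Without combination mouse 6 the difference was 1.09 (edgeR adjusted p 0.142). Neutrophil markers summed to 2.48, 4.97 and 11.8 CPM in the combination and 3.89, 5.98 and 7.37 CPM in vehicle, and no neutrophil marker was called there.

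**Figure D3:**
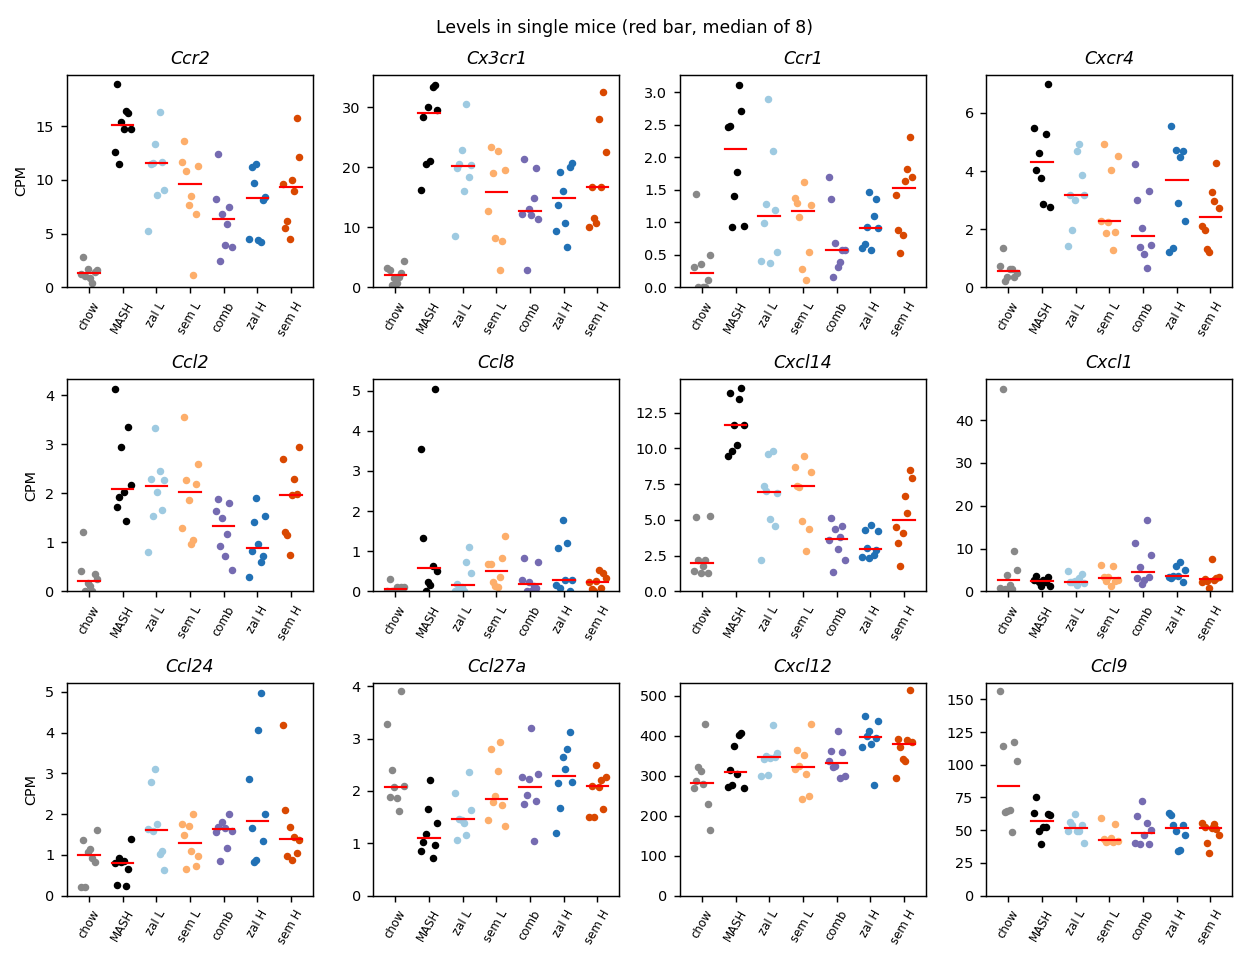
CPM in each of the 56 mice for 12 members, with a linear axis from 0 and the median of 8 as a red bar; groups run from chow and DIO-MASH vehicle (MASH) through both low doses (zal L, sem L) and the combination (comb) to both high doses (zal H, sem H). The Cxcl14 panel shows the 3 groups that lay wholly below vehicle, and the Cxcl1 panel the single chow mouse at 47.3 CPM.

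The following receptors and ligands of lymphocytes and dendritic cells did not pass the test in any treated group. For Cxcl16 the combination gave -0.51 (unadjusted 95% interval -0.93 to -0.1). Cxcl9 gave -0.37 in the combination and -0.11 in high-dose zalfermin, with 95% intervals of -1.02 to 0.28 and -0.76 to 0.54. Ccl5 gave -0.52 and 0.07, Cxcr3 -0.17 and 0.11, Cxcr6 0.28 and 0.45, and Xcr1 -0.03 and 0.64. T cell markers summed to 37.2, 50.6 and 58.8 CPM in vehicle, 3.24, 13.5 and 27.2 CPM in the combination and 8.29, 17.3 and 34.9 CPM in high-dose zalfermin, and 1 of 12, Themis, was lower in each of these treated groups and in high-dose semaglutide. Themis made up most of the sum, with medians of 32 CPM in vehicle and 1.53 CPM in the combination. Monocyte and macrophage markers summed to 279, 643 and 1065 CPM in the combination, 361, 659 and 836 CPM in high-dose zalfermin and 297, 628 and 1269 CPM in high-dose semaglutide, with 4, 5 and 0 of 16 lower (Spp1 -1.37, Mmp12 -1.33, Itgax -1.05 and Cd9 -0.58 on the log2 scale in the combination). Of all genes tested, 10.9%, 8.68% and 1.0% were lower in these groups. Itgax and Mmp12 are markers of recruited lipid-laden macrophages. Other macrophage genes did not pass in the combination, among them Cd68 at -0.27, Gpnmb at -0.25 and Fabp5 at 0.57. The part of cell number in the fall of Ccr2 and Cx3cr1 was not tested.

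Differences between treated groups were tested directly. Adding low-dose semaglutide to low-dose zalfermin gave 1 of 44 members called (background 6.62%), and adding low-dose zalfermin to low-dose semaglutide gave 1 (background 4.21%). Both were Cxcl14, at -0.89 ± 0.28 (SE) (edgeR adjusted p 0.0442) and -0.92 ± 0.28 (SE) (edgeR adjusted p 0.0475). The first call was lost in 12 of 63 alternative settings and the second in 29. The medians were 6.96 CPM and 7.34 CPM with the single low doses and 3.7 CPM with both. The low-dose interaction asks whether the combination differed from the sum of its parts on the log2 scale, that is, from the product of the single-dose folds. It had 0 members called (background 0.0142%) and 0 by DESeq2 (14 of all genes). At an unadjusted p under 0.05 in edgeR it had 1 of the 44 members and 952 of all 14105 genes tested. For Cxcl14 it was -0.07 with a 95% interval of -0.82 to 0.68, and for Ccr2 -0.02 with an interval of -0.79 to 0.76.

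The combination against high-dose zalfermin had 0 members called (background 0.503%), and against high-dose semaglutide 0 (background 1.89%). High-dose zalfermin against high-dose semaglutide had 0 (background 0.447%), high against low zalfermin 0 (background 1.84%) and high against low semaglutide 0 (background 0%). DESeq2 called 1 between the zalfermin doses (368 of all genes) and 0 in each of the others. Members at an unadjusted p under 0.05 in edgeR are given with the count over all 14105 genes tested. The combination had 2 (1544 of all genes) against high-dose zalfermin and 3 (2028) against high-dose semaglutide. High-dose zalfermin had 5 (1361) against high-dose semaglutide and 5 (1906) against low-dose zalfermin. High against low semaglutide had 1 (549). Cxcl14 had the smallest p in the comparison of the zalfermin doses, with a difference of -0.96 ± 0.29 (SE) (edgeR adjusted p 0.0632). Between high-dose zalfermin and high-dose semaglutide, the unadjusted 95% intervals of the log2 difference were -1.53 to -0.12 for Ccl2, -0.78 to 0.35 for Ccr2 and -0.95 to 0.25 for Cx3cr1. The 2 compounds were given at doses set in different units, and their doses were not matched.

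Treated livers were also set against chow livers to ask which chemokine genes remained apart. The combination differed from chow in 20 of 44 members (background 32.4%), 17 higher (background 17.4%) and 3 lower (Ccl9, Ccl25 and Ccl28; background 15%). High-dose zalfermin differed in 30 (background 37.2%), 27 higher (background 19.7%) and 3 lower (the same genes; background 17.6%), and high-dose semaglutide in 27 (background 39.9%), 23 higher (background 21.3%) and 4 lower (Ccl9, Ccl25, Cxcl1 and Cxcl13; background 18.6%). Without the 3 libraries that stood apart, Ccl25 and Ccl28 were at -0.38 and -0.64 against chow in the combination (edgeR adjusted p 0.0991 and 0.501), and Cxcl1 in high-dose semaglutide was at 0.11 (edgeR adjusted p 0.868), while Ccl9 kept its call in all 3. Of the 7 genes that fell in the combination, 4 were called above chow there (Ccl2, Ccr2, Cx3cr1 and Cxcr4) and 3 were not (Ccl8, Ccr1 and Cxcl14), and of the 4 that fell in high-dose zalfermin, 3 were called above chow (Ccl2, Ccr2 and Cx3cr1). Ccr2 was 2.18 ± 0.35 (SE) above chow in the combination (edgeR adjusted p 3.27e-06) and 2.45 ± 0.35 (SE) in high-dose zalfermin (edgeR adjusted p 2.87e-07). Cx3cr1 was 2.59 and 2.71 above chow, and Ccl2 1.87 and 1.58. In the combination Ccr1 stood at 0.98 against chow (95% interval -0.08 to 2.03) and Ccl8 at 1.62 (95% interval -0.39 to 3.63). Cxcl14 was no longer called against chow in the combination (0.44, 95% interval -0.15 to 1.03) or in high-dose zalfermin (0.36, 95% interval -0.23 to 0.96), and was called in high-dose semaglutide (1.02, edgeR adjusted p 0.00459). In all 3 of these groups 17 members were called above chow, among them Ackr3, Ccl2, Ccl5, Ccl22, Ccr2, Ccr7, Cx3cr1, Cxcl9, Cxcl10, Cxcl16, Cxcr3, Cxcr4, Cxcr6 and Xcr1. The share of all genes above chow in all 3 was not counted and can be at most the combination's 17.4%. The 3 comparisons share the chow mice with the disease comparison, so they are not independent of it.

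Receptors and ligands of 1 axis did not always move together. On the Ccr2 axis the receptor and Ccl2 rose in disease by 3.4 and 2.81 and fell in the combination by 1.22 and 0.93 on the log2 scale. On the Cxcr4 axis the receptor rose by 2.81 while Cxcl12 stood at 0.19. On the Ccr9 axis the receptor rose by 1.63 and the call of a lower Ccl25 was lost without chow mouse 8. On the Cxcr5 axis the receptor rose by 2.66 and Cxcl13 fell by 2.02. Without chow mouse 2 the Cxcl13 difference was -1.25 and no longer called. With all mice kept it was -1.38, -4.63 and -1.33 within the 3 number series. The first series held 2 chow mice, chow mouse 2 among them, and the second held 1. On the Cxcr6 axis both genes rose, by 1.38 and 1.84, and on the Cxcr3 axis all 3 did, by 1.62, 1.81 and 1.58. Zmynd15, on the other strand, overlaps 18.3% of the Cxcl16 exon bases.

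**Figure D4:**
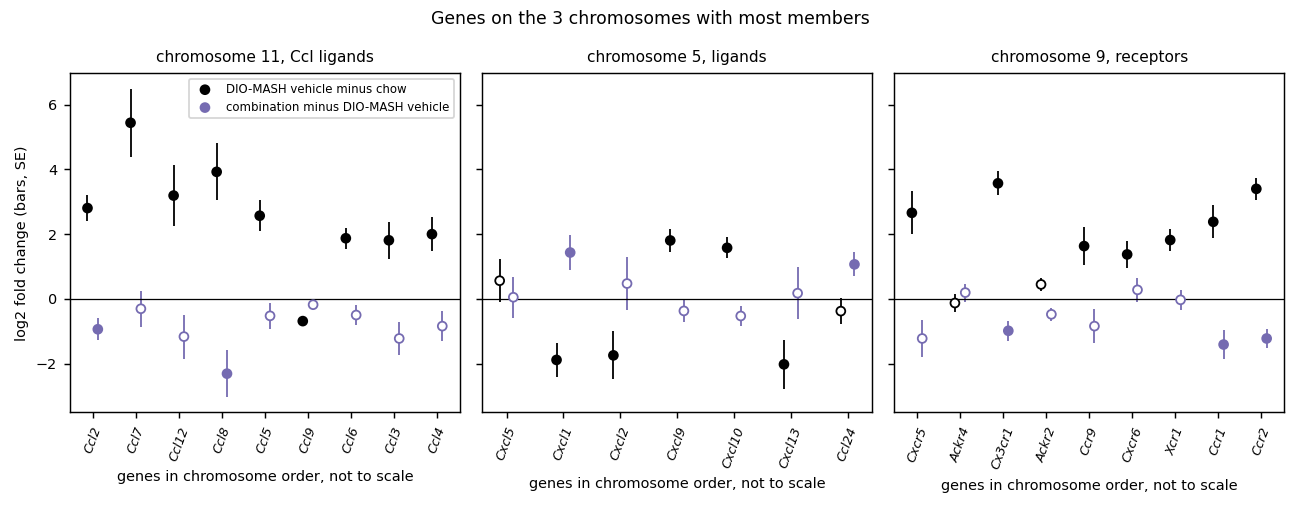
Log2 fold change with SE for members on chromosomes 11, 5 and 9 in chromosome order (spacing not to scale), in disease against chow (black) and in the combination against DIO-MASH vehicle (purple); filled points passed an adjusted p of 0.05. Ccl9 and Ccl6 are neighbours with opposite signs in disease, -0.68 and 1.87, and all chromosome 9 receptors drawn, other than Ackr2 and Ackr4, were called higher in disease.

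Genes that act with chemokines were read from lists, with up to 4 examples each by size of the log2 fold change. Of all genes tested, 28.9% were higher and 26.5% lower in disease. The shares were 10% and 10.9% in the combination, 8.54% and 8.68% in high-dose zalfermin and 1.43% and 1.0% in high-dose semaglutide. In low-dose zalfermin 0.468% were called. Several treatment counts of these lists lay near those shares, and no list was tested as a set. Of 43 genes that carry the signal inside the leukocyte (G proteins, kinases and cytoskeletal regulators), 31 were higher and 4 lower in disease, led by Limk1 2.93, Apbb1ip 2.25, Was 2.23 and Dock2 2.19. In the combination 1 was higher (Stat3 0.43) and 8 were lower (led by Limk1 -2.25, Elmo1 -0.65, Gnai2 -0.42 and Prex1 -0.4), and in high-dose zalfermin 1 was higher and 6 were lower. Limk1, a kinase of the actin cytoskeleton, was the only gene of the list called in low-dose zalfermin (-1.01) and in high-dose semaglutide (-1.3). Of 20 genes of leukocyte adhesion and passage through the vessel wall, 17 were higher and 1 was lower in disease (led by Itgax 4.07, Sele 3.19, Itga4 2.73 and Vcam1 2.26). Of these, 6 fell in the combination (led by Itgax -1.05, Vcam1 -0.73, Selplg -0.7 and Icam2 -0.55) and 2 in high-dose zalfermin (Itgax -1.0 and Jam2 -0.45). Itgax is the integrin subunit CD11c of macrophages and dendritic cells.

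Of 25 inducers of chemokine genes (cytokines, sensors and transcription factors), 12 were higher and 5 lower in disease, among them Spp1 3.4, Tlr9 3.27, Tlr4 1.68 and Il33 1.4 and, among the lower, Nfkbiz -1.35, Il18 -0.96, Nfkbia -0.68 and Irf5 -0.4. In the combination 5 fell, among them Spp1 -1.37, Il33 -0.87 and Irf5 -0.46, in high-dose zalfermin 2 rose (Il18 0.55 and Nfkbia 0.37) and 2 fell (Jun -0.79 and Nfkb2 -0.48), and in high-dose semaglutide 1 fell (Il33 -0.94). Of 15 proteases and glycan partners, 7 were higher and 4 lower in disease. Dpp4, a protease that trims chemokines, rose by 0.32 in low-dose zalfermin, 0.23 in the combination and 0.36 in high-dose zalfermin, and Mmp12, a macrophage protease, changed by -1.33 and -1.79 in the last 2. Of 15 genes that switch receptors off, 9 were higher in disease (led by Rgs1 2.36, Rgs2 2.21, Rgs10 2.08 and Rgs14 1.89), 2 fell in the combination (Grk3 -0.93 and Rgs10 -0.76) and 1 in high-dose zalfermin (Grk6 -0.25). Among 5 chemokine-family genes outside the naming rule, Ccrl2 and Pf4 were higher in disease, and Pf4, a platelet chemokine, changed by -0.96 in high-dose zalfermin. None of these lists had a gene called in low-dose semaglutide.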

How the data were processed

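RNA from whole liver of 56 mice was sequenced with a stranded mRNA kit. The deposited table holds gene counts made by the authors, whole numbers of reads per gene that were not normalized. Per the labels' processing notes the reads were trimmed with Trim Galore 0.6.4 and quantified with Salmon 1.9.0 on GRCm38, the study's methods name STAR instead, and whether the counting used strand is not given in the sources used here. Depth ran from 5228187 to 20885786 reads per mouse, and depth sets the precision of genes near 0.1 CPM.

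The 14105 genes that reached 5 reads in at least 3 mice entered one quasi-likelihood fit of all 7 groups in edgeR 4.0.16 (R 4.3.3) with TMM scaling. P-values were two-sided, adjusted by Benjamini-Hochberg over all genes tested and called under 0.05. CPM used TMM library sizes, log2 CPM a prior count of 2, and SE was the log2 fold change divided by the square root of F. The 95% intervals of log2 differences were built from this SE and were not adjusted for the number of genes tested. They can exclude 0 where the adjusted test did not pass. On counts simulated for the combination comparison (13996 genes, 200 changed 2-fold), 79% of the changed genes were recovered and 3.66% of calls were false. The changed genes were drawn from those with an expected count above 5 at the median depth, and all others were left unchanged. The 79% therefore does not cover members with fewer reads. Alternatives were DESeq2 1.42.0, its size factors, 2 other filters, the series of animal numbers in the labels as a covariate, fits of the compared groups alone, each mouse left out, and, chosen after seeing the data, 3 mice left out.

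The members and lists were chosen with earlier results of these data known. Members called with a mean of 0.5 CPM or more were named, with full statistics for the 12 largest disease and the 6 largest treatment differences. Members called in disease alone are given by the range over treated groups in place of each group. Receptors and ligands paired with a named gene are given where a value bears on the pair, and the rest by counts. The intestinal genes used for chow mouse 8 were chosen after its values were seen. Promoters came from RefSeq (GRCm38.p6), and gene positions, exon lengths and overlaps from GENCODE vM21. The authors' own comparisons were not used, and a few genes are counted but not reported here by name.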

Additional observations from a re-analysis of the deposited data

Results flagged for a closer look

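In 28 named members the 8 mice of each of the 7 groups were searched for a single mouse far from the others (Dixon's test, 95% level). Of the 196 groups, 22 (11.2%) held one, in each case the mouse with the highest value. The test assumes normally spread values and was run on CPM, and the genes share the same mice. Its level therefore gives no expected count to set against the 22.

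Chow mouse 2, the library with high neutrophil markers, stood out in 7 genes: Cxcl1 at 47.3 CPM, Ccl6 at 23.3 CPM, Cxcl13 at 17.4 CPM, Ccr1 at 1.43 CPM, Cxcr4 at 1.35 CPM, Ccl2 at 1.2 CPM and Ccl8 at 0.301 CPM. Chow mouse 8, the library with intestinal genes, stood out in 6: Ccl25 at 47.4 CPM, Cxcl9 at 40 CPM, Cx3cl1 at 12.3 CPM, Ccl5 at 6.52 CPM, Cxcl10 at 4.55 CPM and Ccl22 at 1.23 CPM. Whether the gut RNA is the source of the second set was not tested. Xcr1 was far from its group in high-dose zalfermin mouse 2 (4.63 CPM) and in DIO-MASH vehicle mouse 6 (2.16 CPM).

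Cxcl13 was far above its group in high-dose zalfermin mouse 6 (7.17 CPM), low-dose zalfermin mouse 8 (3.9 CPM) and combination mouse 2 (3.45 CPM). Its receptor gene Cxcr5 was at 4.5 CPM in the same high-dose zalfermin mouse, and Ccr7 at 1.63 CPM in the same combination mouse. High-dose semaglutide mouse 5 held 7.55 CPM of Cxcl1, and mouse 1 of that group 4.19 CPM of Ccl24.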

How the results depend on the processing

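Of the 19 calls of named members against DIO-MASH vehicle, 10 held under all 63 alternatives: Ccr2, Cxcl14 and Ccl27a in the combination and in high-dose zalfermin, Cx3cr1 and Cxcr4 in the combination, and Ccl2 and Ccl24 in high-dose zalfermin. Of the 34 disease calls, 30 held, and those of Ccl25, Cxcl1, Cxcl2 and Cxcl13 did not; Cxcl2 turned to 1.35 without chow mouse 2 and to 1.65 without the 3 mice that stood apart, and with another single mouse left out its lowest value was -1.95. Further, 15 results not called became called under 1 or more alternatives; the cause was not tested.

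Shares of all genes were not counted under the alternatives other than DESeq2. The number of members called moved as follows. With only the compared groups fitted, fewer mice set the spread, and it was 1 in low-dose zalfermin, 10 in high-dose zalfermin, 1 in high-dose semaglutide, 0 for the combination against low-dose semaglutide, 1 against high-dose semaglutide and 1 between the zalfermin doses. Without the 3 mice it was 1 in low-dose zalfermin, 3 for the combination against low-dose zalfermin and 1 between the zalfermin doses. DESeq2 gave 5 in high-dose semaglutide (516 of all genes) and 1 between the zalfermin doses (368 of all genes). The number series as covariate gave 5 in high-dose semaglutide and 0 for the combination against low-dose zalfermin. With no filter the combination had 0 against either low dose. With 1 mouse left out, the range was 32 to 36 in disease, 7 to 14 in the combination, 5 to 6 in high-dose zalfermin, 0 to 6 in high-dose semaglutide (0 without its mouse 3 or 4, 6 without its mouse 7), 0 to 2 for the combination against low-dose zalfermin, 0 to 1 against low-dose semaglutide and 0 to 1 between the zalfermin doses.

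Members below 0.5 CPM rest on a few reads per mouse. No paired analysis was possible because the labels give each mouse its own animal number and no replicate number shared between groups.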
